A study of Mus musculus with 6 samples.

Results

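The tumour necrosis factor (TNF) superfamily was examined in cultured smooth muscle cells of the mouse pulmonary artery (mPASMCs) after silencing of the long non-coding RNA *Snhg18*. Members were the protein-coding genes whose symbol is that of a TNF superfamily ligand, a TNF receptor superfamily member or 1 of the TRAF adaptors that bind these receptors. This gave 53 of the 55487 genes counted, which are 18 ligands, 7 death domain receptors, 4 decoy or related receptors, 17 other receptors and 7 adaptors. Of these, 33 had enough reads to be tested and 20 did not.

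TNF superfamily ligands are trimeric proteins, mostly anchored in the plasma membrane and often released by proteolytic shedding. Some of their receptors carry a cytoplasmic death domain and can start caspase activation, and many others bind TRAF proteins, which are scaffolds and ubiquitin ligases upstream of NF-κB and MAP kinases. In the vessel wall the family is known for inflammatory activation, for the induction of adhesion molecules and chemokines, and for the control of smooth muscle cell survival.

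The mPASMCs, from a commercial supplier, were transfected with a negative control small interfering RNA (si-NC) or with siRNA against *Snhg18* (si-*Snhg18*), and 3 libraries were sequenced in each group. Cells of both groups thus received an siRNA. The oxygen level, the time after transfection and whether the 3 libraries of a group came from separate cultures were not stated, so p-values measure only the spread between these libraries. The comparison asks which genes of the family differ in RNA level when *Snhg18* is silenced.

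Total counts per library lay between 18097718 and 25988746, and si-*Snhg18* library 3 was the shallowest. *Snhg18* itself was at 23.5, 22.4 and 22.2 CPM (reads relative to the size of the library) in si-NC libraries 1, 2 and 3 and at 10.6, 11.2 and 9.97 CPM in si-*Snhg18* libraries 1, 2 and 3, and it fell by 1.10 on the log2 scale (SE 0.10, adjusted p = 0.00727 in edgeR's quasi-likelihood test). Of the markers of other cell types, *Ptprc*, which marks all leukocytes, had at most 8 reads in a library, 4 of 14 leukocyte markers had no read, and the summed leukocyte markers ranged from 7.76 to 11.0 CPM in si-NC and from 7.73 to 13.7 CPM in si-*Snhg18*. Of the 3 leukocyte markers tested, *S100a8* rose by 2.02 on the log2 scale (adjusted p = 0.0154), on 8 to 38 reads per library. The other tested ones were present in every library. *Csf1r*, the largest part of the sum, had means of 5.955 CPM in si-NC and 5.41 CPM in si-*Snhg18*, and *Cd68* 2.34 and 2.97 CPM. Their log2 fold changes were -0.14 and 0.35, with adjusted p-values of 0.8635 and 0.466 in edgeR's quasi-likelihood test. All 7 smooth muscle markers were present, with sums of 1748 to 1895 CPM in si-NC and 1200 to 1850 CPM in si-*Snhg18*. The fitted change was negative for 6 of the 7, and *Tagln* fell by 0.51 on the log2 scale (adjusted p = 0.0427, edgeR's quasi-likelihood test). With the replicate block described below 4 were lower, as were 13.6% of all genes tested. The 5 fibroblast markers, which cultured smooth muscle cells can also express, summed to 2765 to 3749 CPM in si-NC and to 1591 to 2619 CPM in si-*Snhg18*, and the part of both marker lists in the results was not tested. Endothelial markers summed to 12.4 to 14.0 CPM in si-NC and to 13.3 to 15.4 CPM in si-*Snhg18*, epithelial markers to 7.25 to 22.7 CPM and 1.19 to 7.42 CPM, and mesothelial markers to 11.3 to 20.3 CPM and 5.62 to 9.65 CPM. In these bulk libraries fewer cells of a type and less RNA per cell cannot be told apart.

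The bases before the annotated start of a gene carry much of its promoter, and they are shown here for 4 members whose RNA level differed between the groups. The lines give the sequence 5′ to 3′ on the strand of the gene, from the RefSeq table for GRCm38.p6, and capitals mark the GC box (GGGCGG, searched on both strands, here read as its reverse complement), the element bound by Sp1.
Ltbr: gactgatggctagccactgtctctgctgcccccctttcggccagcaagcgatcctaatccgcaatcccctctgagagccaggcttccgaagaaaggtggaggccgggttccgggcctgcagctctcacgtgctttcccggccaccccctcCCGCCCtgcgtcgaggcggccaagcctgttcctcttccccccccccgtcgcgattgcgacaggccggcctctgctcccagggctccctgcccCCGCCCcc
Tnfrsf1b: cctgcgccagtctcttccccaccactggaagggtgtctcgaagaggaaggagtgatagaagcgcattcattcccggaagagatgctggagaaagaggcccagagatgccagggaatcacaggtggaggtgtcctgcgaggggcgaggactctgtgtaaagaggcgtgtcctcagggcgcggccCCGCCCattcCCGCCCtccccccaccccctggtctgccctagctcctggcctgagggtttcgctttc
Traf2: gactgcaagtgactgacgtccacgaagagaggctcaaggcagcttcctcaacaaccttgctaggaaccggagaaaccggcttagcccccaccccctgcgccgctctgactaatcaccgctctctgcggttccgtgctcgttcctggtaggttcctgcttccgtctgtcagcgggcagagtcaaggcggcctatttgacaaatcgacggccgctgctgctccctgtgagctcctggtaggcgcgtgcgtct
Tnfsf15: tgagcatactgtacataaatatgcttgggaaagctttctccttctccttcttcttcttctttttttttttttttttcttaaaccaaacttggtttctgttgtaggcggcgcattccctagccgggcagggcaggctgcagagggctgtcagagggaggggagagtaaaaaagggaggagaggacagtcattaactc
The *Ltbr* sequence lies on the minus strand at chr6:125313886-125314135, with a GC content of 69.2%, 18 CpG dinucleotides and 2 GC boxes. The *Tnfrsf1b* sequence lies on the minus strand at chr4:145246871-145247120, with 62.8% GC, 12 CpG and 2 GC boxes. That of *Traf2*, on the minus strand at chr2:25546941-25547190, has 60.8% GC and 19 CpG, and that of *Tnfsf15*, on the minus strand at chr4:63745114-63745309, has 45.4% GC and 3 CpG, and neither holds a GC box. The *Tnfsf15* sequence has 196 bases and the others 250, because 54 bases inside the annotated gene were left out. Its full window of 250 bases, used in the motif counts below, has 46.8% GC. The median GC content over 32851 windows of 250 bases before mouse gene starts was 52.4%, and 32.7% of them held a GC box. Promoter windows were found for 43 of the 53 members and for 26 of the 33 tested, of which 16 held a GC box. A TATA box (TATAAA) was found in 3 of these 26 and in 12.4% of all windows, an AP-1 motif (TGANTCA) in 3 and in 6.75%, and the NF-κB consensus in 2 and in 7.25%. These 26 members have 28 windows. A member counts when any of its windows holds the motif, while the shares over all windows count each window alone. The AP-1 and NF-κB matches of *Tnfrsf9* lie before a start site 13437 bp inside its annotated gene, and its GC box before one 5593 bp inside. The AP-1 match of *Tnfsf13b* lies before a start site 166 bp inside. A match describes the letters in this window and was not tested as a binding site. *Tnfrsf10b*, the fifth member called below, is not shown.

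Of the 33 tested members, 3 were higher in si-*Snhg18* (*Ltbr*, *Tnfrsf1b* and *Traf2*) and 2 were lower (*Tnfrsf10b* and *Tnfsf15*) with an adjusted p under 0.05 in edgeR's quasi-likelihood test. These 5 are 15.2% of the members tested, and 7.36% of all 14531 genes tested passed the same threshold, 3.65% as higher and 3.71% as lower. The libraries were also paired by the replicate number in their labels, which do not state that same-numbered libraries belong together. With the number as a block 7 members were higher and 7 lower, or 42.4% of the members against 27.2% of all genes. Of all genes, 13.6% were higher and 13.6% lower. The 9 members called by edgeR with the block and not without it were *Tnfrsf21*, *Traf6*, *Tnfrsf26* and *Traf4*, which were higher, and *Tnfrsf1a*, *Eda2r*, *Traf7*, *Tnfrsf9* and *Tnfsf8*, which were lower. Of these 9, DESeq2 without the block also called 4, namely *Tnfrsf21*, *Traf6*, *Tnfrsf1a* and *Eda2r*, with 14.2% of all genes called. As a whole the family did not lean to one side. The fitted log2 fold change was positive for 17 members and negative for 16, with a median of 0.02 against 0.01 over all genes, while the median of its absolute value was 0.45 against 0.25. This last difference was not tested and takes no account of read depth. *Cd40*, *Ngfr* and *Tnfsf18*, for example, had at most 22, 26 and 35 reads in a library, with standard errors of 0.62, 0.51 and 0.61. The values of the groups did not overlap for 12 members, 7 of them higher and 5 lower, which is near the 30.9% of all genes of which this was true (15.4% higher and 15.5% lower). The 5 lower include *Tnfsf18*, which reached the read cutoff of the low-count filter in every si-NC and no si-*Snhg18* library. In 26 of the 33 members (78.8%) the 3 same-numbered pairs all differed in 1 direction, as did 59.6% of all genes. The 26 include *Tnfsf18*, *Tnfsf8* and *Cd40*, each at that cutoff in every library of only 1 group. Such members were kept mainly through the group where they are high, so their separation was in part fixed by the filter.

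The number of calls depended on single libraries. When si-NC library 1, si-NC library 2, si-NC library 3 or si-*Snhg18* library 3 was left out, edgeR's quasi-likelihood test called 0 members, with 8 to 12 at an unadjusted p under 0.05. With all libraries 12 of the 33 members and 3613 of all 14531 genes were under that unadjusted threshold. The number over all genes is not given for the fits without a library, so the 8 to 12 cannot be set against it. No other tool was run without single libraries. The fits without a library called 0 of 14531 genes without si-NC library 1, si-NC library 3 or si-*Snhg18* library 3, and 156 without si-NC library 2. Without si-*Snhg18* library 1 only *Tnfrsf10b* was called, with 325 calls over all genes (2.24%). Without si-*Snhg18* library 2 there were 11 calls, which included all 5, and 3246 over all genes (22.3%). For these 5 members the direction held in every such fit.

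**Figure D1:**
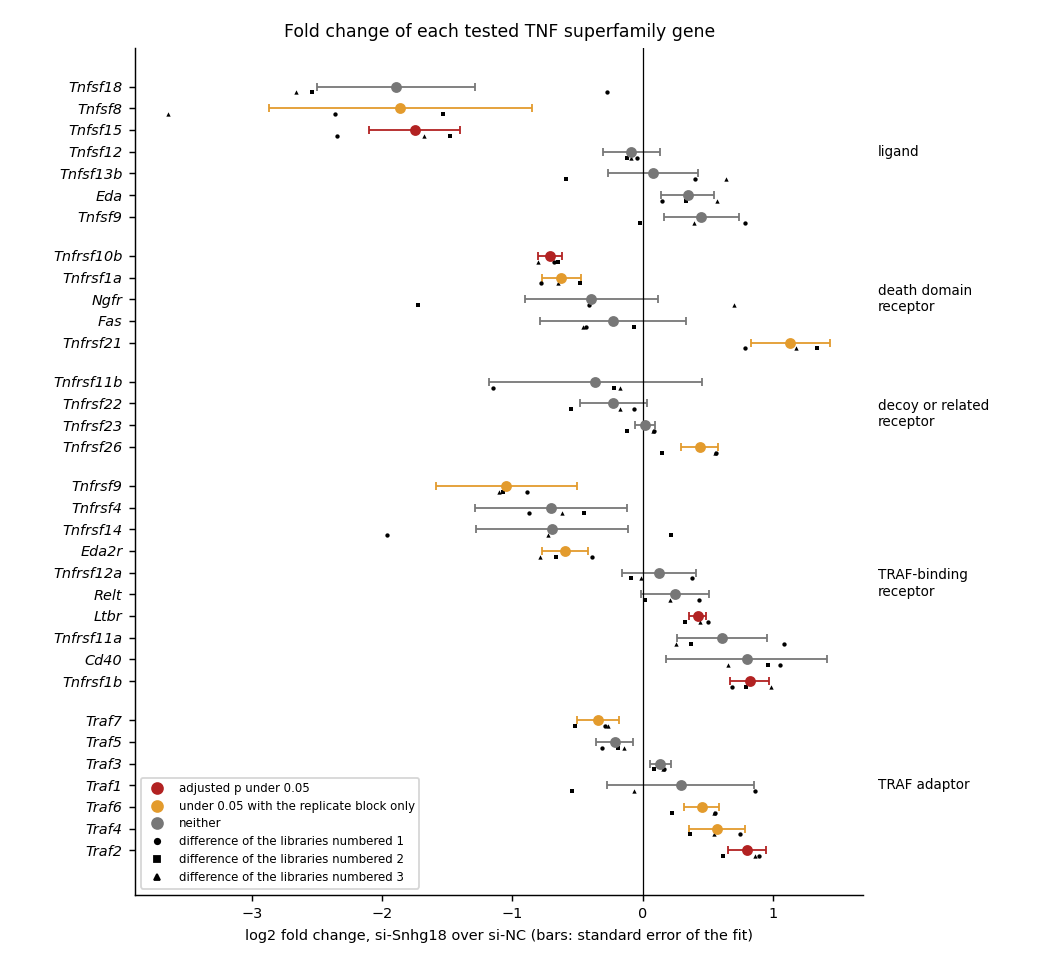
Fold change of each of the 33 tested members on the log2 scale (x axis, si-*Snhg18* over si-NC), with the standard error of the fit as a bar and the difference of each same-numbered pair of libraries as a small black mark, grouped by role (y axis). The 5 members in red passed an adjusted p of 0.05 without the block, the 9 in orange with it and not without it (both edgeR fits of all libraries), and members lie on both sides of 0 within every role.

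Among the ligands, the only called member was *Tnfsf15* (TL1A), the ligand of death receptor 3, which was lower in si-*Snhg18*. *Tnfsf15* (ENSMUSG00000050395, chr4:63724603-63745113, minus strand) was at 63.8, 87.1 and 56.8 CPM in si-NC libraries 1, 2 and 3 and at 12.5, 31.3 and 17.8 CPM in si-*Snhg18* libraries 1, 2 and 3. Every si-*Snhg18* value lay below every si-NC value, and library 2 was the highest in both groups. The mean was 69.2 ± 15.9 CPM (SD, n = 3) in si-NC and 20.5 ± 9.68 CPM in si-*Snhg18*, a fall by 1.75 on the log2 scale (SE 0.35) or 3.37-fold, with an adjusted p of 0.0369 in edgeR's quasi-likelihood test. Leaving out a library gave adjusted p-values from 0.00564 to 0.167, of which 1 of 6 passed, namely that without si-*Snhg18* library 2.

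The neighbouring ligand gene *Tnfsf8* (CD30 ligand), which lies 86194 bp away on the same strand, was at 2.12, 8.25 and 2.37 CPM in the si-NC libraries and at 0.40, 2.85 and 0.16 CPM in the si-*Snhg18* libraries. Each si-*Snhg18* library lay below the si-NC library of its number, but si-*Snhg18* library 2 exceeded si-NC libraries 1 and 3, so the groups overlapped. Its log2 fold change of -1.86 (SE 1.01) had an adjusted p of 0.308, and with the replicate block it fell by 2.17 with an adjusted p of 0.00667. Without the block, the log2 fold change of *Tnfsf8* was -0.95 without si-NC library 2 and -3.83 without si-*Snhg18* library 2, with adjusted p-values of 0.683 and 0.0289. The lowest si-*Snhg18* value rests on 3 reads.

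*Tnfsf18* (GITR ligand) was counted with 10, 35 and 20 reads in si-NC and with 9, 6 and 2 reads in si-*Snhg18*. The groups did not overlap, and the lowest si-NC and the highest si-*Snhg18* count differed by a single read. Its log2 fold change of -1.90 (SE 0.61) had an adjusted p of 0.114, or 0.0565 with the block, and it was the 1 tested member that reached the filter's cutoff in every library of si-NC and in none of si-*Snhg18*.

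*Tnfsf9* (4-1BB ligand) had the highest level per length (TPM) among the ligands. On the CPM scale, which does not correct for length, it was at 27.4, 22.0 and 30.6 CPM in si-NC and at 47.3, 21.7 and 40.2 CPM in si-*Snhg18*. Libraries numbered 2 were the lowest in both groups and differed by only -0.02 on the log2 scale, against 0.79 and 0.40 for the pairs numbered 1 and 3. The fitted change was 0.45 with an adjusted p of 0.382, or 0.0838 with the block. Without si-*Snhg18* library 2 the adjusted p of *Tnfsf9* was 0.0242. The gene overlaps the non-coding gene *Gm11110* on the other strand, which had at most 92 reads against 1196 for *Tnfsf9*. *Eda* (ectodysplasin), *Tnfsf12* (TWEAK) and *Tnfsf13b* (BAFF) had means between 2.52 and 3.43 CPM in both groups, with log2 fold changes of 0.35, -0.09 and 0.08 and adjusted p-values of 0.344, 0.842 and 0.911. *Eda* was higher in all 3 si-*Snhg18* libraries than in any si-NC library.

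The ligands *Tnf*, *Tnfsf14* (LIGHT), *Cd70*, *Tnfsf4* (OX40 ligand) and *Cd40lg* had no read in any of the 6 libraries. The smallest count distinguishable from 0 was taken as 3 reads, which corresponds to 0.115 to 0.164 CPM in these libraries. *Tnfsf11* (RANKL) had 4, 8 and 1 reads in si-NC and 1, 17 and 2 in si-*Snhg18*, *Tnfsf13* (APRIL) at most 10 reads, *Tnfsf10* (TRAIL) and *Lta* (lymphotoxin alpha) at most 6 and 5, and *Ltb* and *Fasl* at most 3 and 1. The ligands of TNF receptors 1 and 2 and those of the lymphotoxin beta receptor were thus at or near the floor in both groups, whereas the receptors were among the abundant members.

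Of the death domain receptors, *Tnfrsf10b* fell, and of the edgeR fits of all 6 libraries with the low-count filter only that with the replicate block called *Tnfrsf1a* lower and *Tnfrsf21* higher. DESeq2, which was run without the block, called both, with adjusted p-values of 0.00494 and 0.0149, and edgeR called *Tnfrsf1a* when every gene with a read was kept (adjusted p = 0.0449). *Tnfrsf10b*, the mouse receptor of TRAIL (ENSMUSG00000022074, chr14:69767472-69784411, plus strand), was at 52.4, 58.4 and 57.9 CPM in si-NC and at 32.6, 37.2 and 33.2 CPM in si-*Snhg18*. The groups lay far apart relative to their own spread, with 56.2 ± 3.34 CPM (SD, n = 3) against 34.3 ± 2.52 CPM. It fell by 0.71 on the log2 scale (SE 0.09) or 1.64-fold, with the lowest adjusted p of the family, 0.0123 (edgeR's quasi-likelihood test). When a library was left out, the adjusted p of *Tnfrsf10b* lay between 0.00564 and 0.0881, and it passed without si-*Snhg18* library 1 or si-*Snhg18* library 2. Its ligand *Tnfsf10* was near the floor, as given above.

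*Tnfrsf1a* (TNF receptor 1) was at 138.6, 165.2 and 143.4 CPM in si-NC and at 80.7, 118.2 and 91.6 CPM in si-*Snhg18*. The groups did not overlap, and libraries numbered 2 were the highest in both. The log2 fold change was -0.62 (SE 0.15) with an adjusted p of 0.0609, and with the replicate block *Tnfrsf1a* fell by 0.64 with an adjusted p of 0.00143. *Tnfrsf21* (death receptor 6) was low, at 1.64, 1.84 and 1.23 CPM in si-NC and 2.85, 4.69 and 2.80 CPM in si-*Snhg18*. All si-*Snhg18* values were above the si-NC values, with a log2 fold change of 1.14 (SE 0.31), an adjusted p of 0.0776 and, with the block, 0.0150. *Fas* was highest in the libraries numbered 2 of both groups, at 1.99, 4.74 and 2.20 CPM in si-NC and 1.46, 4.54 and 1.59 CPM in si-*Snhg18* (log2 fold change -0.23, adjusted p = 0.837). *Ngfr* (p75) had means of 0.80 and 0.62 CPM, with a log2 fold change of -0.39 and an adjusted p of 0.676, and *Tnfrsf25* (death receptor 3, the receptor of TL1A) and *Edar* had at most 4 and 2 reads. Summed over the 7 death domain receptors, levels corrected for exon length (TPM, relative to all transcripts of the library) were 210.5 ± 23.0 in si-NC and 137.8 ± 30.9 in si-*Snhg18*, a sum dominated by *Tnfrsf1a* and *Tnfrsf10b*.

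The other TNF receptor and the lymphotoxin beta receptor differed in the opposite direction. *Tnfrsf1b* (TNF receptor 2, ENSMUSG00000028599, chr4:145213463-145246870, minus strand), which lacks a death domain and binds TRAF2, was at 47.9, 58.6 and 43.5 CPM in si-NC and at 77.2, 101.6 and 86.3 CPM in si-*Snhg18*. The groups did not overlap, and again libraries numbered 2 were the highest in each. Its mean rose from 50.0 ± 7.76 to 88.4 ± 12.3 CPM (SD, n = 3 each), by 0.82 on the log2 scale (SE 0.15) or 1.77-fold, with an adjusted p of 0.0278 (edgeR's quasi-likelihood test). Adjusted p-values of *Tnfrsf1b* without single libraries ran from 0.0176 to 0.136, and the fit without si-*Snhg18* library 2 was the 1 of 6 that passed.

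*Ltbr*, the receptor of membrane lymphotoxin and LIGHT that signals to non-canonical NF-κB (ENSMUSG00000030339, chr6:125306571-125313885, minus strand), was at 115.9, 117.5 and 116.4 CPM in si-NC and at 164.2, 147.0 and 158.1 CPM in si-*Snhg18*. The si-NC libraries were almost equal and all si-*Snhg18* libraries stood above them. *Ltbr* rose by 0.42 (SE 0.07) or 1.34-fold, with an adjusted p of 0.0197 in edgeR's quasi-likelihood test and between 0.00753 and 0.124 without single libraries, passing without si-*Snhg18* library 2 only. *Ltbr* and *Tnfrsf1a* lie 35476 bp apart on chromosome 6 and differed in opposite directions.

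Set against *Tnfrsf1a* within each library, the ratio of *Tnfrsf1b* to *Tnfrsf1a* on the TPM scale was 0.195, 0.2 and 0.171 in si-NC and 0.541, 0.485 and 0.532 in si-*Snhg18*. The means were 0.189 ± 0.0154 and 0.519 ± 0.0297 (SD, n = 3), and relative to its mean the SD of the ratio was smaller than that of either gene in both groups. The ratio of *Ltbr* to *Tnfrsf1a* was 0.805 ± 0.0678 in si-NC and 1.71 ± 0.408 in si-*Snhg18*, so that *Ltbr* was below *Tnfrsf1a* in all si-NC libraries and above it in all si-*Snhg18* libraries. These ratios were formed after the values of the genes were seen and are given with no test.

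**Figure D2:**
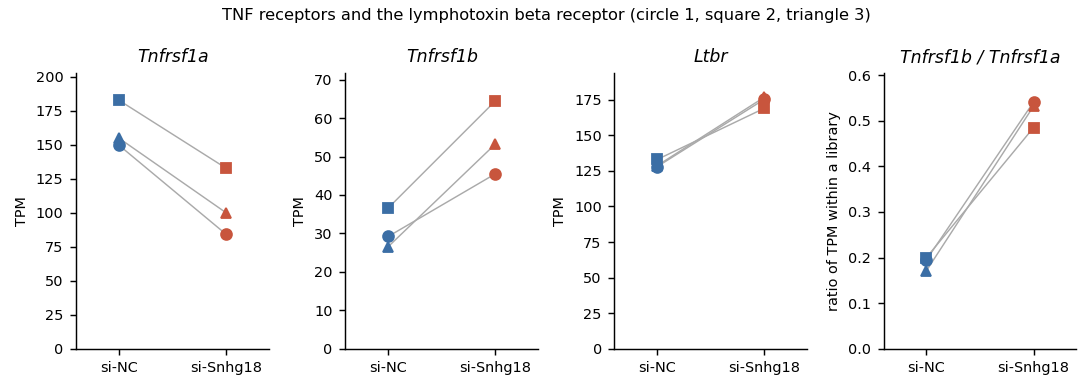
TPM of *Tnfrsf1a*, *Tnfrsf1b* and *Ltbr* and the within-library ratio of *Tnfrsf1b* to *Tnfrsf1a* (y axes, starting at 0) in si-NC and si-*Snhg18* (x axis), with 1 mark per library and lines joining libraries of the same number. *Tnfrsf1a* is lower in si-*Snhg18* in all 3 pairs, *Tnfrsf1b* and *Ltbr* are higher, and the ratio moves from 0.171 to 0.2 in si-NC to 0.485 to 0.541 in si-*Snhg18*.

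The remaining receptors that bind TRAF proteins were mostly uncalled. *Eda2r* (the receptor of ectodysplasin A2) was at 46.4, 36.8 and 45.6 CPM in si-NC and at 35.5, 23.2 and 26.5 CPM in si-*Snhg18*. The groups did not overlap, with a log2 fold change of -0.60 (SE 0.18), an adjusted p of 0.102 and, with the block, 0.00478. *Tnfrsf9* (4-1BB), the receptor of *Tnfsf9*, was at 2.29, 6.82 and 3.22 CPM in si-NC and at 1.23, 3.23 and 1.48 CPM in si-*Snhg18*. Its groups overlapped because of the libraries numbered 2, but the 3 pair differences of -0.89, -1.07 and -1.11 on the log2 scale were alike. The log2 fold change of *Tnfrsf9* was -1.05 (adjusted p = 0.284, or 0.0119 with the block), and it was -0.47 without si-NC library 2 and -1.61 without si-*Snhg18* library 2. *Tnfrsf9* overlaps *Camta1* on the other strand, which had up to 155 reads against up to 167 for *Tnfrsf9*, and the strand setting used in counting was not given in the sources used here.

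*Tnfrsf12a* (Fn14, the receptor of TWEAK) was the most abundant member per length, with 756 ± 162 TPM in si-NC and 819 ± 248 TPM in si-*Snhg18*. On the CPM scale *Tnfrsf12a* was at 346.6, 236.0 and 370.4 in si-NC and at 451.1, 221.5 and 367.6 in si-*Snhg18*. Only the pair numbered 1 differed appreciably, and the log2 fold change was 0.13 (SE 0.28) with an adjusted p of 0.818. *Relt* had means of 22.4 and 26.6 CPM (log2 fold change 0.25, adjusted p = 0.593). *Tnfrsf11a* (RANK), *Tnfrsf4* (OX40), *Tnfrsf14* (HVEM) and *Cd40* had means between 0.42 and 2.15 CPM in both groups, with log2 fold changes of 0.61, -0.71, -0.70 and 0.80 and adjusted p-values from 0.323 to 0.499. *Cd40*, the receptor of CD40 ligand, was higher in si-*Snhg18* in all 3 pairs, on 5 to 22 reads per library. The other 7 receptors of this kind, all with 6 reads or fewer in any library, were not tested: *Tnfrsf18*, *Tnfrsf8*, *Tnfrsf19*, *Tnfrsf13b*, *Tnfrsf13c*, *Cd27* and *Tnfrsf17*, the last with no read.

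The decoy and related receptors comprise *Tnfrsf11b* (osteoprotegerin, the soluble decoy of RANKL) and the neighbouring genes *Tnfrsf26*, *Tnfrsf22* and *Tnfrsf23* on chromosome 7, of which *Tnfrsf22* and *Tnfrsf23* encode mouse decoy receptors of TRAIL. Of these 4, 0 were called by edgeR's quasi-likelihood test, with 1 at an unadjusted p under 0.05, and 0 by DESeq2. *Tnfrsf26* was at 67.3, 62.3 and 64.3 CPM in si-NC and at 99.5, 69.1 and 94.4 CPM in si-*Snhg18*. All si-*Snhg18* values lay above si-NC, with library 2 closest, and the log2 fold change of 0.44 (SE 0.14) had an adjusted p of 0.118 without and 0.0149 with the block. *Tnfrsf22*, 6083 bp from *Tnfrsf26*, had a log2 fold change of -0.22 (adjusted p = 0.633), and *Tnfrsf23*, another 16147 bp on, had 152.9 ± 2.02 CPM in si-NC and 155.1 ± 12.9 CPM in si-*Snhg18* (log2 fold change 0.02, adjusted p = 0.900). Read assignment among these related genes is uncertain, since how reads matching more than 1 of them were counted was not given. The ratio of *Tnfrsf23* to *Tnfrsf10b* on the TPM scale, a decoy to its signalling receptor, was 2.59 ± 0.193 in si-NC and 4.31 ± 0.648 in si-*Snhg18*. With *Tnfrsf23* nearly unchanged, this ratio restates the fall of *Tnfrsf10b*. It was formed after the values were seen and is given with no test, and none was formed for *Tnfrsf22*. *Tnfrsf11b* had its highest value in library 2 of both groups, at 4.61 and 3.96 CPM, and 0.71 to 1.60 CPM in the others (log2 fold change -0.36, adjusted p = 0.818).

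All 7 TRAF adaptors were tested. *Traf2*, the adaptor that links TNF receptors 1 and 2 to the cIAP ubiquitin ligases (ENSMUSG00000026942, chr2:25517982-25546940, minus strand), was at 19.8, 16.9 and 18.1 CPM in si-NC and at 36.7, 25.8 and 32.9 CPM in si-*Snhg18*. Every si-*Snhg18* value exceeded every si-NC value, and library 2 was the lowest in both groups. *Traf2* rose by 0.80 on the log2 scale (SE 0.15) or 1.74-fold, from 18.2 ± 1.46 to 31.8 ± 5.52 CPM (SD, n = 3), with an adjusted p of 0.0310 in edgeR's quasi-likelihood test. Without single libraries the adjusted p of *Traf2* ranged from 0.00626 to 0.145, and it passed without si-*Snhg18* library 2 only.

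*Traf6*, the adaptor shared with the interleukin-1 and Toll-like receptors, was at 34.6, 31.6 and 33.7 CPM in si-NC and at 50.8, 37.0 and 49.2 CPM in si-*Snhg18*. *Traf4* was at 70.7, 56.2 and 78.6 CPM in si-NC and at 118.7, 72.3 and 114.9 CPM in si-*Snhg18*. The groups did not overlap for *Traf6*, and for *Traf4* si-*Snhg18* library 2 lay below si-NC library 3. Their log2 fold changes were 0.45 (SE 0.13) and 0.57 (SE 0.22), and the adjusted p-values were 0.0964 and 0.165, or 0.0121 and 0.00356 with the block. *Traf7* was at 127.7, 103.9 and 124.4 CPM in si-NC and at 104.7, 72.7 and 103.7 CPM in si-*Snhg18*. It was lower in each pair with a slight overlap of the groups, with a log2 fold change of -0.34 (SE 0.16), an adjusted p of 0.250 and, with the block, 0.0100. The ratio of *Traf2* to *Traf7* on the TPM scale was 0.152 ± 0.00836 in si-NC and 0.336 ± 0.0207 in si-*Snhg18*. This ratio was also formed after the values were seen, restates the opposite differences of the genes and is given with no test.

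*Traf3*, the inhibitor of non-canonical NF-κB that keeps NIK low, was at 50.0 ± 2.31 CPM in si-NC and 55.0 ± 3.92 CPM in si-*Snhg18* (log2 fold change 0.14, adjusted p = 0.357). *Traf5* and *Traf1* had log2 fold changes of -0.21 and 0.29 with adjusted p-values of 0.393 and 0.785. *Traf5* shares its strand with the overlapping pseudogene *Gstp-ps*, which had up to 183 reads against 237.

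**Figure D3:**
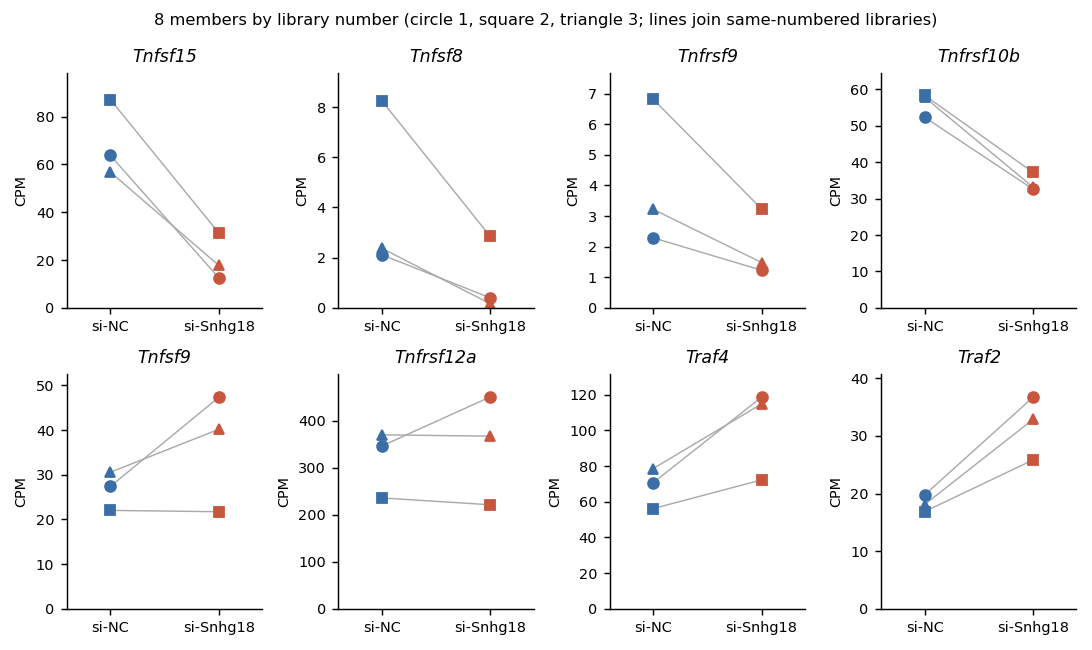
CPM (y axes, starting at 0) of 8 members in the 3 si-NC and 3 si-*Snhg18* libraries (x axis), with lines joining libraries of the same number. Libraries numbered 2 (squares) are the highest in both groups for *Tnfsf15*, *Tnfsf8*, *Tnfrsf9* and *Tnfrsf10b* and the lowest in both for *Tnfsf9*, *Tnfrsf12a*, *Traf4* and *Traf2*.

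The libraries numbered 2 stood apart from the others for much of the family. They were the highest in both groups for 11 of the 33 tested members (33.3%, against 32.2% of all genes) and the lowest in both for 15 (45.5%, against 29.8%). Without both of these libraries 14 members were called by edgeR's quasi-likelihood test, 8 higher and 6 lower, including the 5 called with all libraries, and 27.3% of all genes were called in the same fit. That setting was added after the values had been seen. What distinguishes these libraries was not given in the labels.

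The order of the levels within the family could be compared per length. In si-NC the highest were *Tnfrsf12a* at 756 ± 162 TPM, *Tnfrsf1a* at 162.5 ± 17.8, *Ltbr* at 129.9 ± 2.7, *Tnfrsf23* at 107.1 ± 1.74 and *Traf7* at 92.7 ± 8.90, whose ranges of mean ± SD did not overlap, and the lowest tested member was *Cd40* at 0.33 ± 0.23. In si-*Snhg18* the order of the highest was *Tnfrsf12a* at 819 ± 248 TPM, *Ltbr* at 173.7 ± 4.11, *Tnfrsf23* at 108.1 ± 5.76, *Tnfrsf1a* at 105.7 ± 24.8 and *Traf4* at 73.7 ± 16.8, of which *Tnfrsf23* and *Tnfrsf1a* lay within each other's spread, as did *Traf4* and *Traf7* (72.8 ± 12.4). *Tnfsf15* moved from rank 12 of the 33 to rank 18 and *Tnfrsf1a* from rank 2 to rank 4, while *Tnfrsf1b* moved from rank 11 to rank 9. Summed by role, ligands were at 89.1 ± 4.84 TPM in si-NC and 84.1 ± 15.0 TPM in si-*Snhg18*, receptors that bind TRAF proteins at 973 ± 160 and 1093 ± 248 TPM, decoy and related receptors at 190.3 ± 3.88 and 203.4 ± 22.4 TPM, and TRAF adaptors at 199.2 ± 18.8 and 218.5 ± 37.0 TPM. For each of these 4 sums the difference of the means was smaller than the larger SD.

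**Figure D4:**
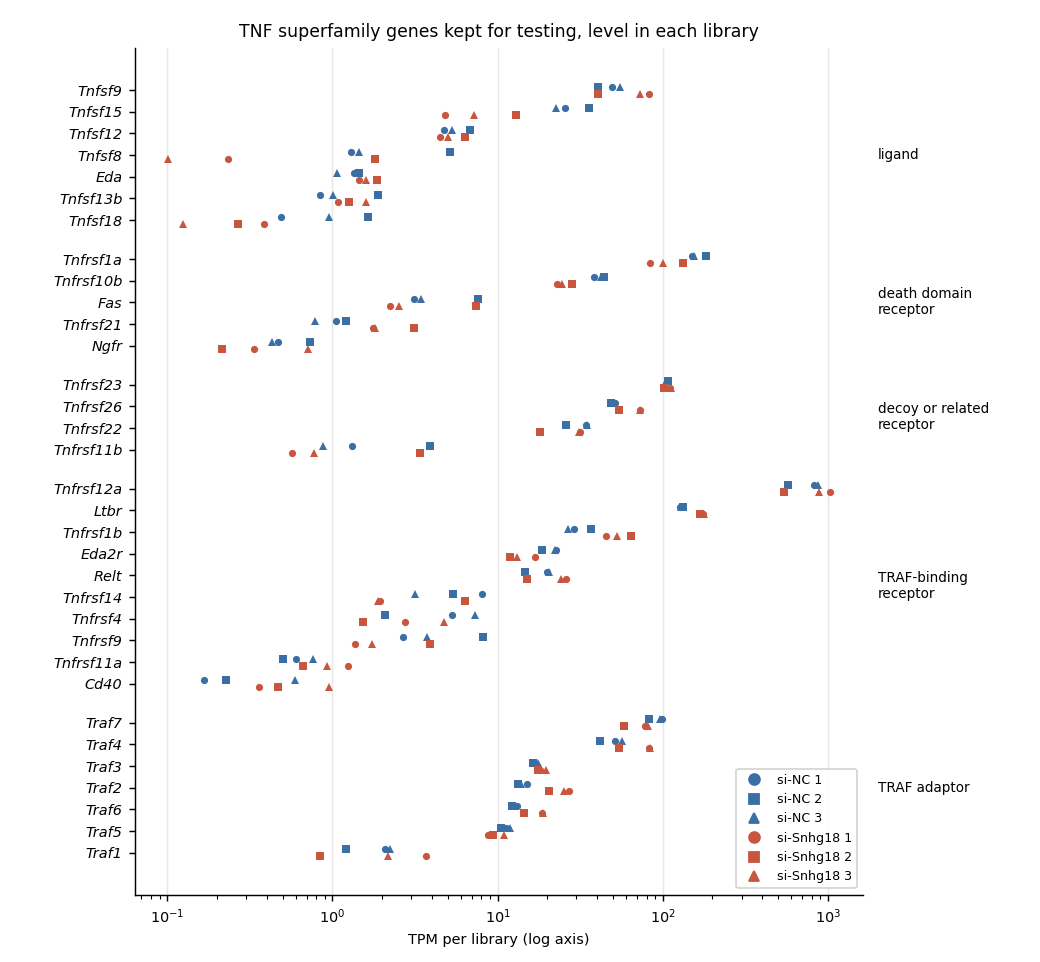
TPM of the 33 tested members in each library (x axis, log scale), grouped by role (y axis), in si-NC (blue) and si-*Snhg18* (red). *Tnfrsf12a* is the highest member in every library, and *Tnfsf9* is the highest ligand in every library.

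Genes that act around these receptors were taken from a list of 83 genes, of which 77 were tested. In edgeR's quasi-likelihood test 4 were higher and 6 lower, or 13% against 7.36% of all genes, and with the replicate block 16 were higher and 18 lower, or 44.2% against 27.2%. The median log2 fold change of the list was 0.08, against 0.01 over all genes. All 10 called genes are named here, which goes beyond the rule for naming in 7 cases chosen after their values were seen.

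Among 19 adaptors and death signalling genes, *Madd*, a death domain protein that binds TNF receptor 1, was at 5.79, 3.10 and 6.10 CPM in si-NC and at 21.3, 9.77 and 16.7 CPM in si-*Snhg18*. All si-*Snhg18* values were above si-NC, and *Madd* rose by 1.67 (SE 0.37, adjusted p = 0.0464), whereas the kinase *Map3k5* (ASK1) fell by 0.96 (SE 0.21, adjusted p = 0.0464). Of 17 ubiquitin editing genes and inhibitors, *Xiap*, an inhibitor of caspases, rose by 0.40 (adjusted p = 0.0413) and *Tax1bp1*, a partner of A20, fell by 0.54 (adjusted p = 0.0144). In edgeR's quasi-likelihood fits without single libraries *Madd*, *Map3k5* and *Xiap* each passed in 1 of 6, with adjusted p-values up to 0.173, 0.185 and 0.179. *Tax1bp1* passed in 2 of 6, with up to 0.0999. When every gene with a read was kept, *Map3k5* (adjusted p = 0.0564) and *Xiap* (0.0589) were no longer called. The kinase *Ikbke* was at 16.7 ± 1.23 CPM in si-NC and 8.91 ± 3.45 CPM in si-*Snhg18* (log2 fold change -0.91, adjusted p = 0.117, or 0.0113 with the block).

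Of the 14 genes of IκB kinase, NF-κB and their inhibitors, edgeR's quasi-likelihood test called 0, with 1 at an unadjusted p under 0.05, and DESeq2 called 1, which was lower. Over all genes DESeq2 called 14.2%. With the block 3 were lower and 0 higher, or 21.4% against 27.2% of all genes. The largest of these was *Bcl3*, with 14.9 ± 11.5 CPM in si-NC, 8.02 ± 7.76 CPM in si-*Snhg18* and an adjusted p of 0.533 without and 0.00706 with the block. Its log2 fold change of -0.88 without the block became -0.03 without si-NC library 2 and -2.07 without si-*Snhg18* library 2. Of the 5 genes of ligand and receptor shedding, *Adam17*, the protease that releases TNF and cleaves both TNF receptors, was at 92.3, 90.8 and 91.6 CPM in si-NC and at 133.9, 110.0 and 122.8 CPM in si-*Snhg18*. The si-NC libraries were almost equal and all si-*Snhg18* libraries were higher, and *Adam17* rose by 0.42 (SE 0.08, adjusted p = 0.0377). *Rhbdf1*, the gene of an inactive rhomboid protein that carries ADAM17 to the cell surface, rose by 0.47 (adjusted p = 0.0290), and *Timp3*, its tissue inhibitor, fell by 0.44 (adjusted p = 0.0398). Without single libraries these 3 each passed in 1 of 6 fits, with adjusted p-values up to 0.164, 0.146 and 0.176. *Adam17* had 0.0502 when every gene with a read was kept, and *Timp3* 0.0516 without TMM factors. The other genes of this group, with log2 fold changes of 0.11 and -0.05 and adjusted p-values of 0.439 and 0.941, were not called with the block either.

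Of the 22 known NF-κB targets tested, 3 were lower, namely the collagenase *Mmp13*, the cytokine *Lif* and the adhesion molecule *Icam1*, which fell by 1.38, 0.88 and 0.60 with adjusted p-values of 0.0421, 0.0137 and 0.0208 in edgeR's quasi-likelihood test. These 3 are 13.6% of the targets tested, against 7.36% of all genes. With the block 7 were higher and 7 lower, or 63.6% of the targets against 27.2% of all genes. The list of targets was chosen with earlier results of these data known. Without single libraries *Mmp13* passed in 1 of 6 fits and *Lif* and *Icam1* in 2 of 6, with adjusted p-values up to 0.171, 0.0912 and 0.12. The adhesion molecule *Vcam1* was at 314.2, 499.6 and 280.2 CPM in si-NC and at 106.9, 302.7 and 130.9 CPM in si-*Snhg18*, with the libraries numbered 2 the highest in both. Si-*Snhg18* library 2 lay above si-NC library 3, so the groups overlapped, with a log2 fold change of -1.02, an adjusted p of 0.206 and, with the block, 0.00200. The chemokine *Ccl2* was at 218.9, 108.3 and 221.2 CPM in si-NC and at 541.6, 120.6 and 435.8 CPM in si-*Snhg18*. Here the libraries numbered 2 were the lowest and differed least, and the log2 fold change was 1.00, with an adjusted p of 0.316 and, with the block, 0.0184. *Cxcl1* and *Cxcl10*, at most 10.6 and 4.00 CPM in any library, had log2 fold changes of 1.70 and 2.27, adjusted p-values of 0.420 and 0.151 and, with the block, 0.0106 and 0.0216.

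**Figure D5:**
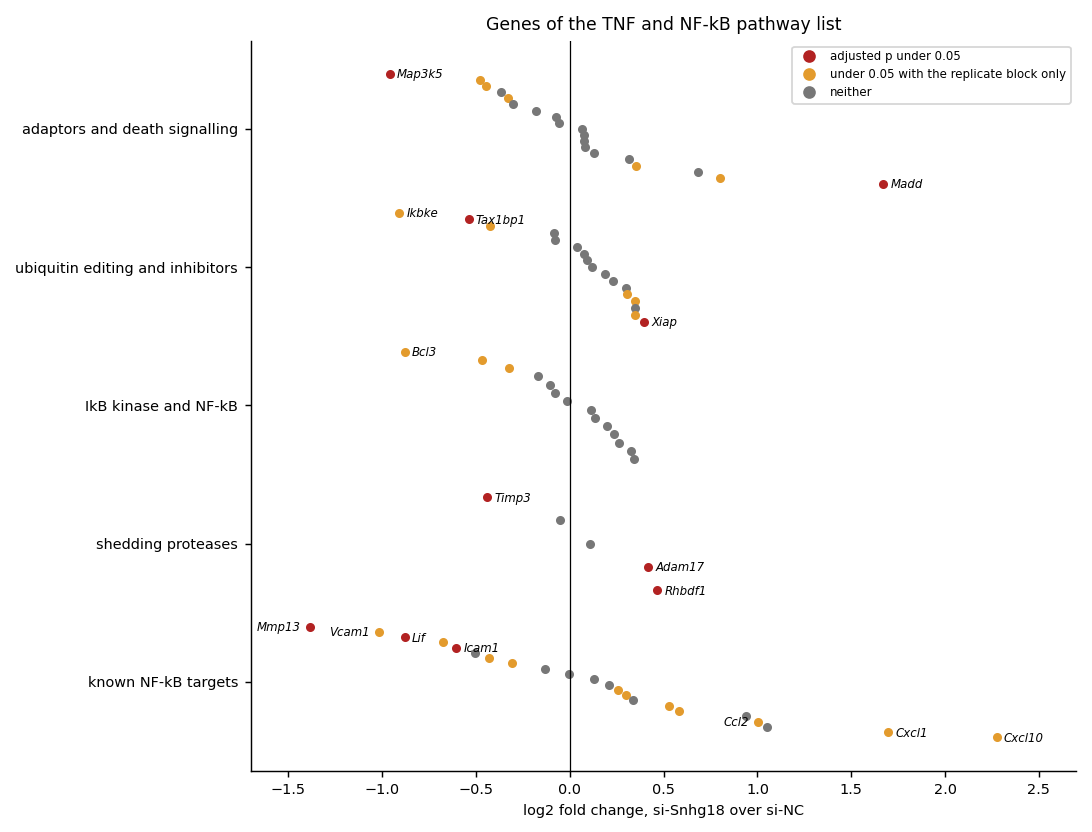
Fold change on the log2 scale (x axis, si-*Snhg18* over si-NC) of the 77 tested genes of the pathway list in its 5 groups (y axis), with 1 point per gene. The 10 genes in red passed an adjusted p of 0.05 without the block, those in orange with it and not without it (both edgeR fits of all libraries), and the named targets range from *Mmp13* at -1.38 to *Cxcl10* at 2.27.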

How the data were processed

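RNA of mPASMCs was sequenced in 6 libraries (3 si-NC, 3 si-*Snhg18*) made with a stranded, poly(A)-directed Illumina kit. The authors deposited raw read counts per gene. The submitters' processing notes name HISAT2 and mm10; the aligner version, the counting program and its strand setting are not given in the sources used here. The columns of the knockdown carry the short name siH18 and were matched to the si-*Snhg18* samples by their replicate numbers.

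The tests used edgeR 4.0.16 under R 4.3.3. After filterByExpr (at least 10 as its minimum count) and TMM scaling of the libraries, the groups were set against each other in the quasi-likelihood test over 14531 genes with Benjamini-Hochberg adjustment (threshold 0.05). CPM use TMM-scaled library sizes, TPM the exon lengths of the table. Fitted log2 values use a prior count, which draws low genes toward 0. An exact permutation test of 3 against 3 cannot give a two-sided p below 0.1 and was not used. For the block, libraries were paired by the replicate numbers in the labels, which do not say that same-numbered libraries share a culture. Deviations from the group means of same-numbered libraries correlated with r = 0.41, 0.742 and 0.359 across genes. Correlations between libraries of different numbers are not given, so these values cannot decide whether the pairing is real. Alternatives were RLE factors, no factors, other filters, DESeq2 1.42.0, limma 3.58.1 (voom), the replicate block and leaving out libraries. The fit was tested on simulated data. Library depth was 18097718 to 25988746 counts; floors cover counting error only.

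Members with an adjusted p under 0.05 with or without the block were named with every library's value, other tested members by means and fold change, untested members by their highest count, and of the pathway list at most 5 genes with an adjusted p under 0.05 in either fit in each direction. A gene that this rule names is not reported here. The members and lists were chosen with earlier results of these data known.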

Additional observations from a re-analysis of the deposited data

How the results depend on the processing

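Both fits and every way of scaling kept the direction of the 5 called members. RLE factors, no TMM factors, limma-voom and a filter of 1 CPM in 3 libraries called the same 5. They called 7.28%, 7.6%, 7.13% and 8.87% of all genes tested, and the CPM filter kept 30 members. Keeping every gene with a read called 6 of 47 members, adding *Tnfrsf1a*, with 3.51% of 25015 genes called. That setting called 2 higher genes of the pathway list instead of 4. DESeq2 called 5 members higher and 4 lower, and 8 genes of the pathway list higher and 12 lower, with 14.2% of all genes called against 7.36%. With the replicate block 7 members were higher and 7 lower, and 16 pathway genes higher and 18 lower, with 27.2% of all genes called. Leaving out 1 library gave 0 to 7 members higher and 0 to 4 lower, and 0 to 12 pathway genes higher and 0 to 17 lower, with 0% to 22.3% of all genes called.

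The remaining settings were chosen after seeing the data. Without both libraries numbered 2, 8 members were higher and 6 lower, and 15 pathway genes higher and 18 lower, with 27.3% of all genes called. With the block and without the pair numbered 1, 7 members were higher and 9 lower, and 16 pathway genes higher and 22 lower (31.8% of all genes). Without the pair numbered 2 the block gave 7 higher and 6 lower, and 14 and 18 pathway genes (24.3% of all genes). Without the pair numbered 3 it gave 2 higher and 4 lower members and 5 and 7 pathway genes, with 737 calls over all genes (5.07%) instead of 3954, and *Ltbr* was no longer called (adjusted p = 0.0667).

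No called member changed sign. Over the fits without 1 library the log2 fold change of uncalled members changed sign for *Tnfsf13b* (-0.129 to 0.487), *Tnfrsf12a* (-0.109 to 0.366), *Fas* (-0.966 to 0.278), *Tnfrsf11b* (-1.571 to 0.503), *Tnfsf12* (-0.214 to 0.059), *Traf1* (-0.34 to 0.707), *Tnfrsf23* (-0.028 to 0.086) and *Tnfrsf22* (-0.391 to 0.015). Without both libraries numbered 2, *Tnfsf13b* was at 0.526 and *Ngfr*, at -0.949 without si-*Snhg18* library 3, was at 0.19, or at 0.164 with the block. With the block, leaving out the pair numbered 1 gave *Tnfrsf12a* -0.053, *Traf1* -0.283, *Tnfsf13b* -0.017 and *Tnfrsf23* -0.023, and leaving out the pair numbered 3 gave *Tnfsf13b* -0.119 and *Tnfrsf23* -0.013. The cause was not tested. No library held over 17 reads of any of the 20 members left untested by the main filter, and 6 of them had no read. Keeping every gene with a read tested 47 members and called none of these 20, but a difference would be hard to detect at such counts.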
